A study of Mus musculus with 2 samples.

Results

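The genes described here encode the heat shock proteins and the DnaJ chaperones of the mouse. They are all probe sets whose single gene symbol in the platform annotation names an HSP90, an HSP70 (Hspa), a small heat shock protein (Hspb), Hspd1, Hspe1, Hsph1 or a DnaJ protein of class A, B or C. There were 121 such probe sets, for 60 genes, among 20380 probe sets with 1 gene symbol, which stand for 12393 genes. A probe set is a group of short oligonucleotides read as 1 intensity for a transcript. The intensities came from 2 arrays of total RNA from femur of C57BL/6 mice, one labelled allograft (tissue moved between animals) and one labelled autograft (tissue moved within an animal). The labels give no time after grafting, no agent, no age and no number of animals, and do not say which animal of the allograft the strain describes. With 1 array per graft type no difference below has a replicate check or a test, and the small number of arrays limits how precise every value is.

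Heat shock proteins are molecular chaperones, which hold unfolded proteins and help them to fold, to cross membranes or to be degraded. HSP70 proteins bind and release their clients with the energy of ATP; DnaJ proteins, also called HSP40 or J-proteins, deliver clients and stimulate that ATPase, and Hsph1 exchanges the nucleotide. The stress-inducible members are switched on by the transcription factor HSF1 when proteins unfold, whereas cognate members such as Hspa8 are made in all cells, and the endoplasmic reticulum and the mitochondrion have sets of their own. In bone, the endoplasmic reticulum set serves cells that secrete collagen, and small heat shock proteins are abundant in the muscle that adheres to a femur.

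The letters before the start sites of some members hold motifs known for heat shock or endoplasmic reticulum stress, and stretches are shown for members in which such a motif was found. HSF1 binds repeats of GAA in alternating orientation. Windows of 250 bases before each RefSeq start (GRCm38.p6) were searched for 2 such units, GAANNTTC or TTCNNGAA, each of which reads the same on both strands, and for 3 units, GAANNTTCNNGAA, on both strands; each match to 3 units also holds matches to 2 units. Of 60 member genes, 49 had a window. The 2-unit motif stood in 5 of 6 stress-inducible members with a window (Hspa1a, Hspa1b, Hsph1, Hspb1 and Dnajb4) in 2 of 9 constitutive ones (Dnaja1 and Dnajb6), in 2 of 4 mitochondrial ones (Hspd1 and Hspe1), in 1 of 7 of the endoplasmic reticulum (Dnajc10) and in Dnaja4, Dnajc27 and Hspb3. That makes 13 of 49 members (26.5%), against 14.5% of all 27025 genes with a window. The 3-unit motif stood in Dnajb6, Hspd1 and Hspe1 and in 0 of 6 stress-inducible members, against 0.514% of all genes. The endoplasmic reticulum stress element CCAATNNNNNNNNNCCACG, on either strand, stood in Hspa5, Hsp90b1 and Dnajc3, 3 of the 7 endoplasmic reticulum members with a window, against 0.130% of all genes. A match is a description of the letters and not a binding site. In the stretches below, read 5′ to 3′ on the strand of the gene, capitals mark the motif; for the endoplasmic reticulum element they mark its fixed letters.
Hspa1b (chr17:34959309-34959368, minus strand; Hspa1a has the same letters at chr17:34972227-34972286, minus strand): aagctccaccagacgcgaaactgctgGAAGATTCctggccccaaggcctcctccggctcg
Hsph1 (chr5:149636337-149636396, minus strand): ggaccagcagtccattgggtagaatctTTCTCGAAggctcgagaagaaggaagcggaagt
Hspb1 (chr5:135887781-135887850, plus strand): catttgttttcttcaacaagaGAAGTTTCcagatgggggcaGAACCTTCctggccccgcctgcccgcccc
Hspe1 (chr1:55088053-55088082, plus strand): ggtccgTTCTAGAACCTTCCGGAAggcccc
Dnajb6 (chr5:29735843-29735872, plus strand): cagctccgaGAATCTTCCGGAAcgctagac
Hspa5 (chr2:34771970-34772089, plus strand): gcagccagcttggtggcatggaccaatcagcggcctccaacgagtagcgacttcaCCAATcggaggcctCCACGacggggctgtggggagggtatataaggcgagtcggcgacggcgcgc
Hsp90b1 (chr10:86705483-86705602, minus strand): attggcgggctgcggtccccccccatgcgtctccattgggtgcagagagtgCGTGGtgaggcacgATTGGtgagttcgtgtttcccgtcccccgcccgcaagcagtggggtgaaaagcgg
Dnajc3 (chr14:118937806-118937865, plus strand): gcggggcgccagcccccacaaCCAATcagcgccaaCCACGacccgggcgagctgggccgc
The windows of Hspa1a and Hspa1b, which encode the same inducible HSP70, were identical at 247 of 250 bases. The Hspe1 stretch lies between the start of Hspe1 (base 55088148) and the listed start of Hspd1 at base 55087932, and Hspd1 runs the other way. The windows before these starts therefore both hold it. The other listed Hspd1 start, at base 55088243, lies beyond the start of Hspe1, and its window does not hold the stretch.

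None of the 52 genes that could be compared differed 2-fold between the arrays. The floor was an intensity of 175, the median over the non-control probe sets of both arrays. Every lower value was replaced by it, and log2 ratios are given as allograft minus autograft. By its brightest probe set, 51 genes were above the floor in both samples, 1 (Dnajc5b, 168 against 186) on the autograft array alone and 8 on neither, for which no ratio is given. Of these 52 genes 0 were 2-fold higher in the allograft, where 0.868% of the 7833 genes above the floor on at least 1 array were, and 0 were 2-fold lower, against 0.753%. At those shares under 1 gene of 52 would lie on either side, so these counts do not set the chaperones apart. At 1.5-fold, 4 of the 52 were apart (10.6% of all genes were): Dnajb1 and Hspa1b on the higher side in the allograft, Dnajc10 and Dnajc1 on the lower. With the probe sets of each gene averaged, 0 of them were. The ratio was above 0 in 30 of 52 members, against 40.4% of all genes, and below 0 in 22, against 59.5%. Its median was 0.09, against -0.08 over all genes. The ratios spanned -0.82 for Dnajc10 to 0.75 for Dnajb1, and their SD across genes above the floor in both samples was 0.31, against 0.38 over all genes. Counted by probe set the balance was even: of 85 member probe sets above the floor on at least 1 array, 42 lay above 0 and 43 below, with a median of -0.01, against -0.07 over all probe sets with 1 gene symbol. No member probe set was 2-fold apart, where 188 of 11010 were.

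**Figure D1:**
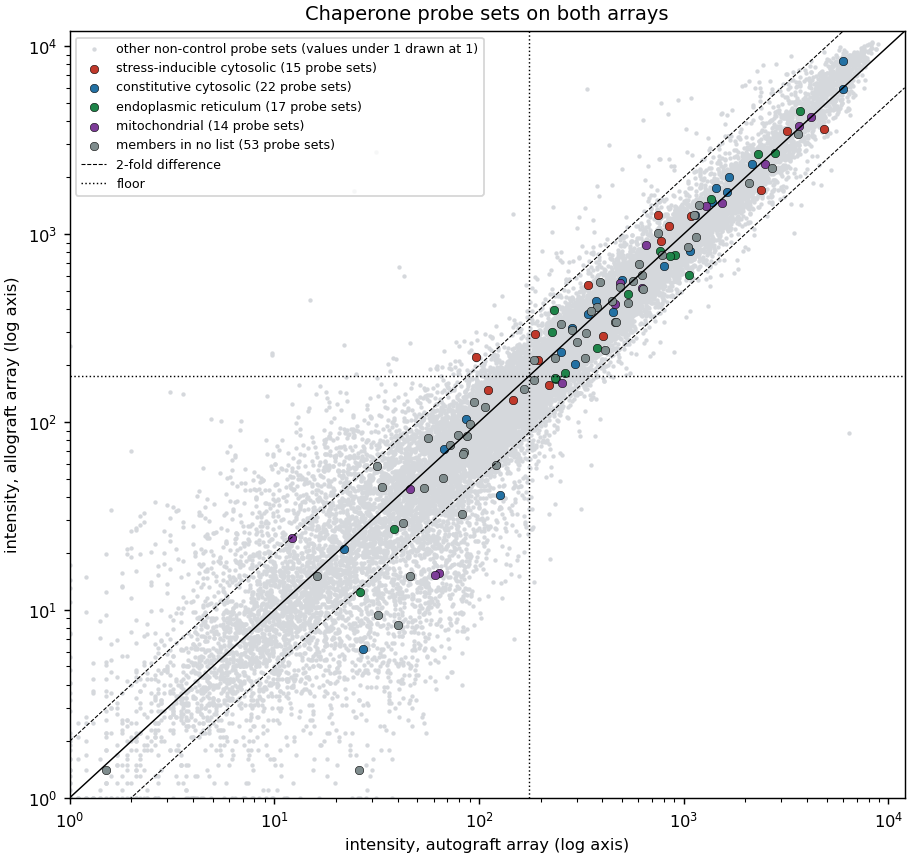
Intensity of every non-control probe set on the allograft array against the autograft array, both axes on a log scale, with the 121 chaperone probe sets coloured by list; the solid line marks equal intensity, the dashed lines a 2-fold difference and the dotted lines the floor of 175. Above the floor on both arrays every chaperone point lies inside the 2-fold lines.

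The stress-inducible members of the cytosol are the genes that HSF1 drives most strongly. Of the 7, 6 were above the floor, 5 of them with a ratio above 0, and the median was 0.29. Dnajb1, the J-protein that partners inducible HSP70, read 1268 in the allograft and 753 in the autograft, a log2 ratio of 0.75, which 2.16% of all genes reached. A second probe set read 286 against 402, a ratio of -0.49, so the probe sets of Dnajb1 point opposite ways. Hspa1b, inducible HSP70, read 293 against 189 (0.63, reached by 3.34% of all genes) by its brightest probe set, not far above the floor on either array. A second probe set of Hspa1b, marked as open to cross-matching, was above the floor on the autograft array alone (156 against 219), and the remaining one was below on both (131 against 146). Hspa1a, its near-identical copy, was below the floor on both arrays at 148 against 110.4, and the signals of both copies may mix on such arrays. With the floor at the 25th percentile Hspa1a stood at 0.42. The inducible HSP70 genes were thus near the floor on both arrays.

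The other inducible members showed smaller ratios. Dnajb4, a J-protein of muscle and other tissues, read 1100 against 848 (0.38), and its second probe set was above the floor on the allograft array alone (221 against 96.7), at least 1.26-fold higher there. Hsph1, the HSP110 nucleotide exchange factor, read 1244 against 1080 (0.20), and its probe sets lay within 0.06 of each other. Hsp90aa1, the inducible HSP90 of the cytosol, read 3529 against 3206 (0.14) by the brightest of 3 probe sets, while the others read 923 against 778 (0.25) and 537 against 341 (0.66). All 3 probe sets of Hsp90aa1 were on the same side. Hspb1, the small heat shock protein HSP27 (HSP25 in mouse), was the exception: it read 3641 against 4829 (-0.41), and 1722 against 2394 (-0.48) in its second probe set. That second probe set is marked as open to cross-matching. Over all probe sets of the inducible list above the floor, 9 of 13 had a ratio above 0 and 4 below: those of Hspb1, 1 of Dnajb1 and 1 of Hspa1b. Averaging the probe sets of each gene brought Dnajb1 to 0.13 and Hspa1b to 0.16, and the list median to 0.17.

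**Figure D2:**
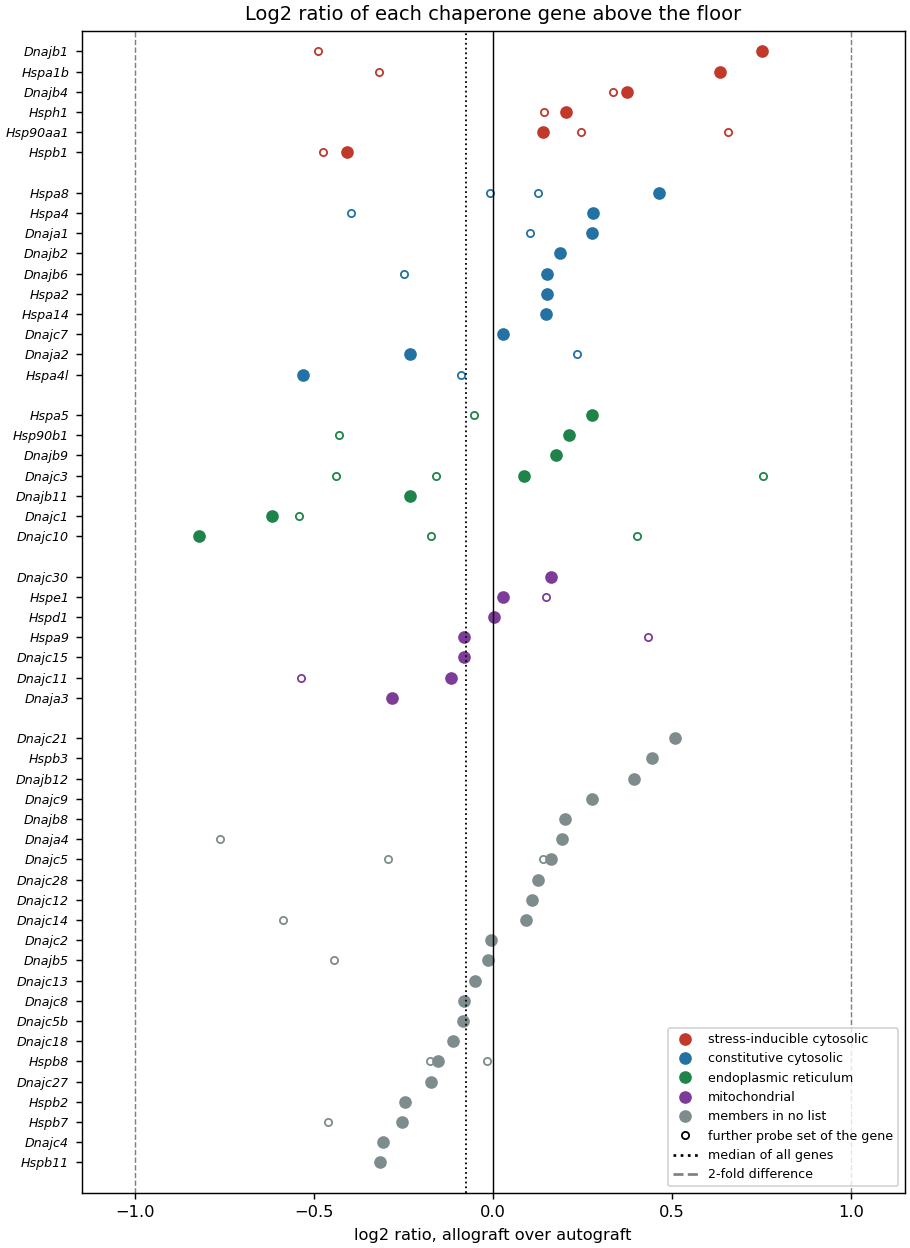
Log2 ratio of allograft over autograft (horizontal axis) for each of the 52 chaperone genes above the floor on at least 1 array, 1 row per gene, grouped by list; filled points are the brightest probe set and open points the further probe sets above the floor on at least 1 array. All points lie between the dashed 2-fold lines; 5 of 6 inducible genes lie right of 0, and the open points of Dnajb1 and Hspa1b lie left of it.

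The constitutive members of the cytosol lay mostly above 0, as most inducible ones did. Of 11 genes, 10 had a probe set of their own; none is listed for Hsp90ab1, the cognate HSP90, alone. All 10 were above the floor in both samples, 8 of them with a ratio above 0, and the median was 0.15, against 0.29 for the inducible list and -0.08 for all genes. A floor set at the 75th percentile turned the order, at 0.21 for the constitutive and 0.20 for the inducible list. The difference between both lists was not tested, since genes of 1 pair of arrays are not replicates. Hspa8, the cognate HSP70 of all cells, read 8285 against 6003 (0.46) by its brightest probe set, but 5946 against 5987 (-0.01) and 2357 against 2162 (0.12) by the others above the floor. The brightest Hspa8 probe set carries the name ending of the array design for possible cross-matching. Among the brightest 5% of probe sets above the floor the median ratio was 0.30, and Hspa8 stood at 0.20 once the trend of the ratio with intensity was removed. Hspa4, an HSP110 relative, read 1756 against 1446 (0.28), with a second probe set at 812 against 1071 (-0.40). Hspa4l, its close relative, had the lowest ratio of the list at -0.53 (204 against 294), with a second probe set at -0.09 (236 against 251).

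Of the other HSP70 members of the constitutive list, Hspa2, best known from the testis, read 314.5 against 283 (0.15). Hspa14, which works at the ribosome, read 375.5 against 339 (0.15). The J-proteins of this list were Dnaja1, the main class A partner of HSP70, at 2012 against 1661 (0.28, and 0.10 in its second probe set), Dnajb2, which carries ubiquitin-binding motifs, at 568 against 499.5 (0.19), and Dnajb6, which keeps aggregating proteins in solution, at 1257 against 1132 (0.15). The second probe set of Dnajb6 stood at -0.25. Dnajc7, which binds both HSP70 and HSP90, read 1664 against 1632 (0.03). Dnaja2 read 385 against 452 (-0.23) by one probe set and 440 against 374 (0.23) by the other. Thus 4 of the 10 genes, Hspa8, Hspa4, Dnajb6 and Dnaja2, had probe sets on both sides of 0. Averaging the probe sets above the floor turned Hspa4 to -0.06, Dnajb6 to -0.05 and Dnaja2 to 0.00.

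In the endoplasmic reticulum 4 of 7 members lay above 0 and 3 below, and both general chaperones had a second probe set on the other side of 0. Hspa5, the HSP70 known as BiP, read 4495 against 3712 (0.28), with a second probe set at 2689 against 2791 (-0.05). Hsp90b1, the HSP90 known as GRP94, read 2659 against 2297 (0.21), but a second probe set was above the floor on the autograft array alone (171 against 236), which turns its average to -0.11. Both carry the endoplasmic reticulum stress element shown above. Among the J-proteins that assist BiP, Dnajb9 read 1540.2 against 1363 (0.18) and Dnajb11 read 770.3 against 905 (-0.23). Dnajc3, an inhibitor of eIF2alpha kinases that also carries the element, read 809 against 762 (0.09). Its further probe sets stood at 477 against 532 (-0.16), 393 against 233 (0.75), 169 against 238 (above the floor on the autograft array alone) and 26.9 against 38.4 (below it on both). Those reading 393 and 169 in the allograft are marked as open to cross-matching. The probe sets of Dnajc3 therefore give no single direction.

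By brightest probe set, the lowest ratios of all the chaperones were in this compartment. Dnajc10, a J-protein that reduces disulphide bonds, read 602 against 1066 (-0.82, a ratio that 2.07% of all genes reached or passed on that side) by its brightest probe set, which is marked as open to cross-matching. Its other probe sets read 762 against 859 (-0.17) and 301 against 227 (0.40), and without marked probe sets Dnajc10 stood at -0.17. Dnajc1, a J-protein of the endoplasmic reticulum membrane, read 247 against 379 (-0.62), and its second probe set agreed at 182 against 264 (-0.54), while the remaining one was below the floor on both arrays. Of the 1.5-fold differences among the members, that of Dnajc1 was the only one whose other probe sets above the floor did not cross 0. Of the 7 endoplasmic reticulum genes 4 lay above 0 and 3 below, with a median of 0.09, which became -0.11 when the probe sets of each gene were averaged.

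The mitochondrial members lay on both sides of 0, from -0.28 to 0.16 by their brightest probe sets. Hspd1 and Hspe1 are the HSP60 ring and its HSP10 lid, which fold proteins of the mitochondrial matrix. The Hspe1 stretch shown above lies between the start of Hspe1 and a listed start of Hspd1. Hspd1 read 4183 against 4174 (0.00). Hspe1 read 3742 against 3671 (0.03), with a second probe set at 1417 against 1280.1 (0.15). Both had ratios near 0 as deposited; after quantile normalization they stood at -0.14 and -0.12. Hspa9, the HSP70 known as mortalin, read 1460 against 1545 (-0.08), with a second probe set at 879 against 652 (0.43). Among the J-proteins of the organelle, Dnajc15 stood at -0.08 (2351 against 2490), Dnajc11 at -0.12 (427 against 463), Dnaja3 at -0.28 (517 against 629) and Dnajc30 at 0.16 (548 against 490). A second probe set of Dnajc11 was above the floor on the autograft array alone (161 against 254). The list median of -0.08 equalled that of all genes to 2 decimals, with 3 of 7 genes above 0 and a span from -0.28 to 0.16. A pair of probe sets that match both Dnajc19, part of the import motor, and its pseudogene read 987 against 982 and 79.5 against 94.7.

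The small heat shock proteins, which hold unfolding proteins without ATP, lay mostly below 0. All 6 with a probe set were above the floor in both samples. Of these, 5 had a ratio below 0, against 59.5% of all genes. The median of the 6 was -0.25 (between -0.28 and -0.20 in the alternative settings), against -0.08 over all genes. By probe set, 9 of 10 above the floor were below 0, where 6417 of 11010 were over all genes. Besides Hspb1, Hspb7, a small heat shock protein of heart and skeletal muscle, read 2259 against 2696 (-0.25) and 339 against 467 (-0.46), and Hspb2, which is expressed in muscle, read 969 against 1149 (-0.25). Hspb8, which acts with the cochaperone Bag3, read 1869 against 2080 (-0.15), 559 against 567 (-0.02) and 266 against 300.5 (-0.18), all on one side. Hspb11, which is a subunit of the transport particles of cilia rather than a classical chaperone, read 428 against 533 (-0.32). Hspb3, the muscle partner of Hspb2, went the other way at 1016 against 747 (0.44). The genes Hspb2, Hspb3 and Hspb11 have 1 probe set above the floor each, so no second reading bears on them.

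Since several of these proteins are made by muscle fibres, the skeletal muscle markers are given beside them. Of 12 muscle markers 12 were above the floor in both samples, 9 of them with a ratio above 0, and the median was 0.36. With the intensity trend removed that median was 0.25, with 10 of the 12 markers above 0. The intensities of the 12 markers summed to 57950 for the allograft and 44537 for the autograft, and none was at 0. Cryab, alphaB-crystallin, a small heat shock protein of muscle outside the symbols counted here, stood at 0.27 (7592 against 6304). With the intensity trend removed Cryab stood at 0.01. Thus 9 of the 12 muscle markers lay above 0 (40.4% of all genes did). Of the small heat shock proteins 5 of 6 lay below it (59.5% of all genes did). The muscle markers Myh2 (-0.24), Tnnt3 (-0.22) and Tnnc2 (-0.06) also lay below 0. The part of muscle content in these ratios was not tested. In RNA of a whole tissue, fewer cells of a type and less RNA per cell cannot be told apart.

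The members in no list, J-proteins of special function and small heat shock proteins, were spread about 0. Over the 22 such genes above the floor, Hspb2, Hspb3, Hspb7, Hspb8 and Hspb11 included, 10 had a ratio above 0 and 12 below, with a median of -0.01. The highest were Dnajc21, which takes part in ribosome maturation, at 0.51 (555 against 390.0), Hspb3 at 0.44, Dnajb12, a J-protein anchored in the endoplasmic reticulum membrane, at 0.39 (331 against 252), Dnajc9, a J-protein that also binds histones, at 0.28 (1432 against 1182), and Dnajb8 at 0.20 (213.5 against 186). The lowest were Hspb11 at -0.32, Dnajc4 at -0.31 (513 against 634), Hspb7 and Hspb2 at -0.25 each, and Dnajc27 at -0.17 (297 against 334). Dnaja4 had 2 probe sets above the floor that stood at 0.19 (691 against 604) and -0.76 (242 against 411).

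The remaining J-proteins in no list lay closer to 0 by their brightest probe sets. Dnajc5, the cysteine string protein of secretory vesicles, stood at 0.16 (1261 against 1128), with further probe sets at 0.14 and -0.29. Dnajc28 stood at 0.13, Dnajc12 at 0.11, Dnajc14 at 0.09 (with a second probe set at -0.59), Dnajc2, a J-protein of the ribosome, at -0.01, Dnajb5 at -0.01 (with a second at -0.44), Dnajc13, an endosomal J-protein, at -0.05, Dnajc8, which is found with splicing factors, at -0.08 (3417 against 3618), and Dnajc18 at -0.11. Besides Hspa1a, the genes below the floor on both arrays were Hspa1l, Dnajb3, Dnajb7 and Dnajb13, of which Hspa1l is known as a testis HSP70, and Hspa12b, Dnajc17 and Dnajc24. Over all 38 DnaJ genes, 33 were above the floor, 18 of them above 0, with a median of 0.09, which became -0.01 with the mean of probe sets. The median of class B stood at 0.19, that of class C at -0.03 and that of class A at -0.02, the latter pair turning to 0.03 and 0.05 after quantile normalization.

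Probe sets of one gene gave the only repeated reading in these data. Of the 60 genes 36 had more than 1 probe set, and 22 had at least 2 above the floor in both samples. Between the brightest and the next probe set the ratios differed with an SD of 0.48, against 0.44 over 1925 genes of the whole array, and the median size of the difference was 0.41, against 0.26. They had opposite signs in 11 of 22 chaperone genes, against 39.2% of all such genes. In 2 of the 22, Dnajb1 and Dnajc10, the probe sets spanned 1 or more on the log2 scale (9.09%, against 4.78% of all such genes). The closest were Hsph1 (a span of 0.06), Hspb1 (0.07), Dnajc1 (0.08), Hspe1 (0.12), Hspb8 (0.16) and Dnaja1 (0.17). Of these, Hspb1, Hspe1 and Hspb8 include a probe set marked as open to cross-matching. Other values given above, such as those of Hspa5, Dnajc2 and Dnajb5, also include marked probe sets. Of the ratios by brightest probe set, only those of Dnajb1, Hspa1b, Dnajc1, Dnajc10, Hspa4l and Dnajc21 were larger in size than the SD of 0.48. That SD describes a difference between 2 ratios and not the spread of a single ratio, so it sets no bar for smaller ratios. Among the genes named, only Dnajc1 and Hspa4l had a second probe set above the floor in both samples with every reading on the same side. The second reading of Hspa4l was small, at -0.09, and stood at 0.03 with the intensity trend removed.

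**Figure D3:**
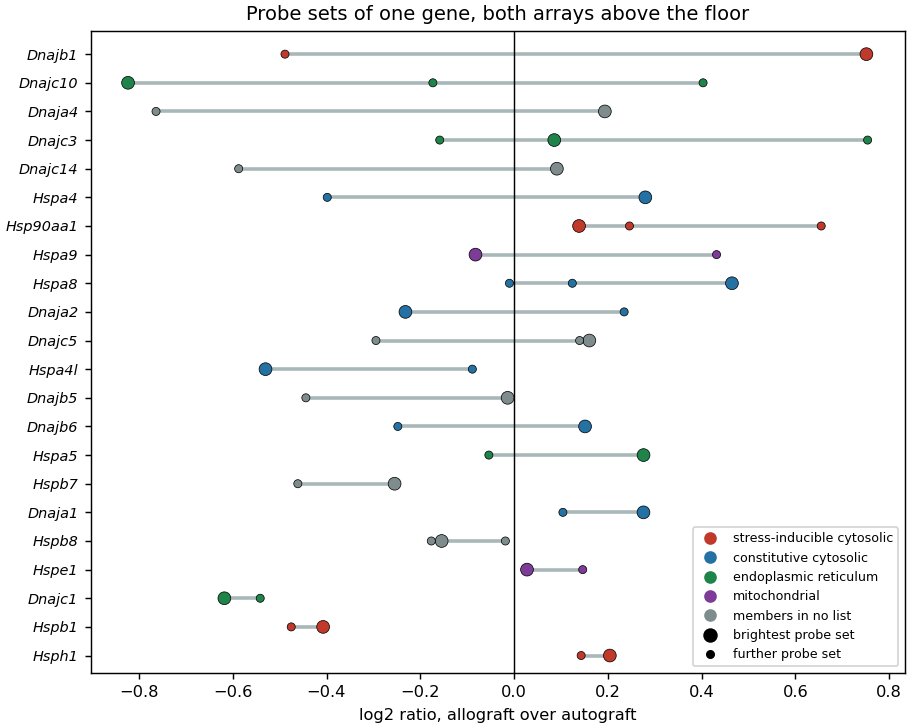
Log2 ratio of allograft over autograft (horizontal axis) for each probe set of the 22 chaperone genes with at least 2 probe sets above the floor in both samples; large points are the brightest probe set, small points the others, and grey bars span them. The bars of Dnajb1 and Dnajc10 are longer than 1 and cross 0, while those of Hsph1, Hspb1 and Dnajc1 are shorter than 0.1.

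Most cochaperones that work with these proteins lay below 0, as did most genes of the array. Of the list of heat shock factors and cochaperones, 18 of 24 were above the floor. The ratio was below 0 in 13 of these 18, against 59.5% of all genes. The list median was -0.21, against -0.08 over all genes. With the intensity trend removed it was -0.12, against -0.02. Cdc37, which loads kinases onto HSP90, was lowest at -0.63 (980.0 against 1513), and Cacybp was highest at 0.37 (1044 against 808). Stip1, which joins HSP70 to HSP90 and is itself driven by HSF1, stood at -0.38 (623 against 809), and Bag3, another HSF1 target, at 0.07 (1421 against 1349). The factors Hsf2 and Hsf4 were below the floor on both arrays, and no probe set is listed for Hsf1 alone.

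The other partner lists held genes on both sides of 0. The 8 subunits of the cytosolic chaperonin TRiC, which folds actin and tubulin, had a median of 0.13 (0.01 with the intensity trend removed or after quantile normalization), from Cct6a at -0.51 (2947 against 4185) to Cct7 at 0.34 (2200 against 1738). The folding and unfolded protein response genes of the endoplasmic reticulum, 18 of 20 above the floor, had a median of -0.08, from Sil1, a nucleotide exchange factor of BiP, at -0.44 (448 against 608) to Ppp1r15a, a phosphatase subunit induced by stress, at 0.46 (1240.2 against 902). The 9 mitochondrial folding and protease genes had a median of 0.01, from Clpp at -0.33 to Clpx at 0.33, the protease and the ATPase of one complex. Of 13 other stress-induced genes 11 were above the floor, with a median of 0.04 (0.27 with the floor at the 25th percentile, -0.07 with the mean of probe sets), from Serpinh1, the collagen chaperone HSP47, at -0.44 (4664 against 6332) to the metallothionein Mt2 at 0.38 (5714 against 4404). Of these 5 lists 0 genes were 2-fold apart in either direction.

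**Figure D4:**
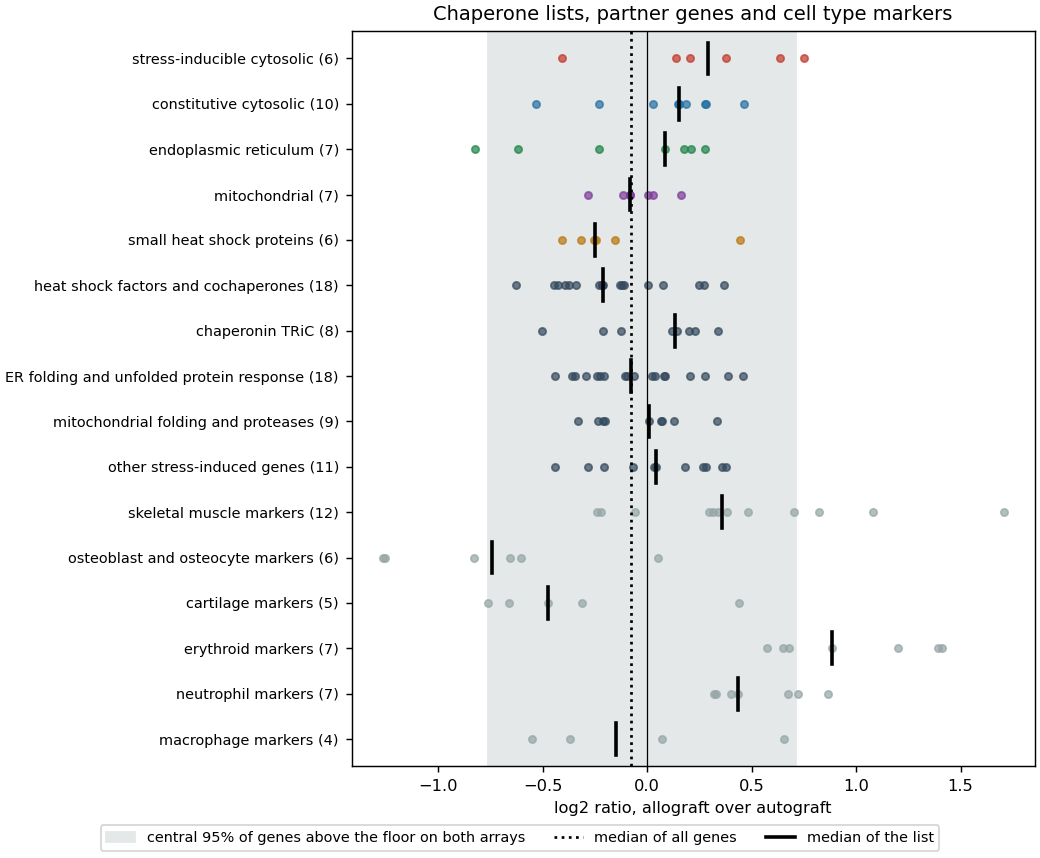
Log2 ratio of allograft over autograft (horizontal axis) for the genes above the floor in each chaperone list, partner list and cell type marker list, 1 point per gene, with the number of genes in brackets; thick bars are list medians, the dotted line the median of all genes (-0.08), and the shaded band the central 95% of genes above the floor in both samples (-0.76 to 0.71). The medians of the chaperone lists lie between -0.25 and 0.29, inside those of the osteoblast and erythroid markers (-0.74 and 0.89).

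The labelled tissue was checked by its markers. Of the osteoblast and osteocyte markers with a probe set, 6 of 6 were above the floor in both samples, 5 of them below 0, with a median of -0.74, and their summed intensity was 13443 against 18758. Of the cartilage markers 5 of 6 were above the floor, 4 of them below 0 and Col2a1 at 0.44. Their median was -0.47 (summed 15960 against 18033). All 7 erythroid markers with a probe set had a ratio above 0, with a median of 0.89 (summed 18452 against 9236), and all 7 neutrophil markers did, with a median of 0.43 (summed 33708 against 24238). The 4 macrophage markers with a probe set had a median of -0.15 (summed 14641 against 13474). They were split, 2 above 0 and 2 below, from Cd68 at -0.55 to Csf1r at 0.65. No marker with a probe set was at 0. The part of these cell types in the chaperone ratios was not tested. The control probe sets of beta-actin, a check of RNA integrity, gave a 3'/5' quotient of 1.77 for the allograft and 1.19 for the autograft. Those of Gapdh gave 0.194 and 0.0349, both far below 1, whereas the beta-actin quotients were above 1. Why the Gapdh quotients are so low is not given in the sources used here. They are not read as a measure of RNA integrity. The part of RNA integrity in the ratios was not tested either.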

How the data were processed

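The deposited table holds 1 intensity per probe set and array, on a linear scale. How the authors made these intensities is not given in the sources used here; the 2% trimmed mean was 500.2 for the allograft and 500.1 for the autograft, so the deposited values were used without further scaling. Probe sets were named by the platform annotation where it gives 1 symbol. All 60 member genes matched the RefSeq table (GRCm38.p6) by Entrez identifier, and 0 symbols differed. Intensities below 175 were set to that floor before log2 was taken. The probe set brightest on average stands for its gene. Control probe sets and those with several symbols were left out. The genes named are all members of the 4 chaperone lists and the small heat shock proteins, of the other members the 5 highest and 5 lowest ratios, all 2-fold differences and those whose probe sets differ by 1 or more, and the highest and lowest gene of each partner list; further genes were chosen after their values were seen. Members and lists were chosen with earlier results of these data known. No p-value is given, since each graft type has 1 array. The steps were tested on simulated data. Alternatives were 3 scalings, 3 treatments of low values, 2 choices of probe set, a wider list and a 1.5-fold threshold. The computations ran in Python 3.11.15 with pandas 2.3.3 and numpy 2.4.6; the lowess fit used statsmodels 0.14.6, the trimmed mean scipy 1.17.1 and the figures matplotlib 3.10.9.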

Additional observations from a re-analysis of the deposited data

How the results depend on the processing

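Settings were compared for 9 results: 6 list medians, the counts of members 2-fold higher and 2-fold lower, and the SD between probe sets. A median or the SD was taken as kept when it moved by at most 0.1 on the log2 scale, whatever its sign. A count was taken as kept when it stayed within 1.5 times. Of the values under alternative settings, 67 were kept, 4 moved and 1 moved with a change of sign. The 67 include the counts at 2-fold, which were 0 throughout. The mean of probe sets nevertheless moved medians towards 0 or across it: from 0.09 to -0.01 for the DnaJ genes, from -0.08 to 0.00 for the mitochondrial list and from 0.09 to 0.00 for all members, and from 0.15 to 0.09 for the constitutive list. The median of the endoplasmic reticulum list turned from 0.09 to -0.11 with the mean of probe sets. That mean takes only the probe sets of a gene above the floor on at least 1 array. That of the stress-inducible list moved from 0.29 to 0.17 with the mean of probe sets and to 0.17 with the wider list, which adds Dnaja1, Hspd1, Hspe1 and Hspb8. The count of members past the threshold was 0 each way in every setting at 2-fold, and 2 higher and 2 lower at 1.5-fold. The latter became 0 and 0 with the mean of probe sets, 3 and 1 with the trend removed, 3 and 2 after quantile normalization, 1 and 1 with a 75th percentile floor, and 2 and 1 with median centring or without marked probe sets. Of the 52 members 32 had a value in all 9 settings, 14 of them above 0 throughout and 10 below 0 throughout; of the stress-inducible list 5 had a value in all, 4 of them above 0 throughout and 1, Hspb1, below. Hspa1b had no value with the floor at the 75th percentile. Hspa8 ranged from 0.12 to 0.52 and Dnajb1 from 0.13 to 0.82. No replicate could be left out. No paired analysis was possible because each graft type has 1 array. Values near the floor, such as those of Hspa1a and Hspa1b, are limited by the signal over background, whose level on these arrays is not given in the sources used here.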
